A study of Homo sapiens with 6 samples.

Results

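Transcripts of the interferon response and of antigen presentation were examined in SNU-449, a long-established line of human liver cancer cells. The set holds 58 genes of the 58219 gene identifiers counted, chosen by name as receptors and kinases, STAT and IRF factors, nucleic acid sensors and adaptors, interferon-stimulated effectors and antigen presentation genes. All 58 were found in the count files, and 50 had enough reads to be tested. The comparison sets 3 libraries of cells stably expressing Yes T348I, a gatekeeper mutant, against 3 of cells stably expressing wild-type Yes (Yes WT). Yes is a SRC family tyrosine kinase encoded by YES1. Dasatinib, a drug against SRC family and ABL kinases, was given at 100 nM to the cells of both groups. A gatekeeper change alters the drug pocket of a kinase. No library of untreated cells or of cells without the introduced Yes was analysed here. The sources used here do not name the promoter of the introduced gene, the length of treatment, or whether each line is 1 clone. Separate cultures are not stated for the 3 libraries of a line, so the p-values cover the spread between libraries, and that spread may be technical. The mutation and any other difference between the 2 stable lines cannot be told apart.

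Interferons are secreted proteins that cells make when sensors such as RIG-I, MDA5 and cGAS detect foreign or misplaced nucleic acid. Type I interferon binds the receptor of IFNAR1 and IFNAR2, and type II interferon binds that of IFNGR1 and IFNGR2. The attached JAK2 and TYK2 kinases then phosphorylate STAT proteins. STAT2 with IRF9 forms part of the complex that binds the interferon-stimulated response element, a repeated GAAA motif in the promoters of effector genes. The same signals raise the class I antigen presentation machinery, which carries peptides into the endoplasmic reticulum through TAP1 and TAP2 and loads them on HLA class I molecules paired with B2M.

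Gene counts totalled 14392286 to 19608763 per library in Yes T348I and 14360137 to 16117573 in Yes WT. Levels below are CPM, which are counts scaled to library size, here with TMM factors for library composition. YES1 stood at 382, 411 and 435 CPM in Yes T348I, against 357, 368 and 367 CPM in Yes WT (log2 fold change 0.17, SE 0.036, edgeR adjusted p = 9.94e-05). The counts do not show the mutation. All 3 epithelial keratin genes looked at were tested and none passed the threshold. KRT8 was at 163 ± 8.50 CPM in Yes T348I and 172 ± 2.94 CPM in Yes WT (SD, n = 3 each). KRT18 averaged 261 CPM in Yes T348I and 258 CPM in Yes WT. With KRT19 the sum averaged 425 CPM in Yes T348I and 431 CPM in Yes WT, so KRT19 added little. KRT8 passed as lower, at -0.11, with upper quartile scaling (edgeR adjusted p = 0.0097) and with library size only (edgeR adjusted p = 0.017). It also passed without Yes T348I replicate 1, at -0.11 (edgeR adjusted p = 0.012). Of 8 hepatocyte markers, ALB, APOA1, APOB, TTR and HNF4A had at most 10 counts in any library. The fibrinogen gene FGB was expressed and lower in Yes T348I, at 52.3 ± 1.16 CPM in Yes T348I and 60.5 ± 2.79 CPM in Yes WT (SD, n = 3 each; log2 fold change -0.21, SE 0.048, edgeR adjusted p = 2.88e-04). The transferrin gene TF was also lower, at 0.785 ± 0.523 CPM in Yes T348I and 2.19 ± 0.639 CPM in Yes WT (SD, n = 3 each; log2 fold change -1.37, SE 0.30, edgeR adjusted p = 1.58e-04), and SERPINA1 did not pass, with at most 27 counts. Of 2 liver cancer markers, GPC3 had at most 2 counts. AFP had 16 to 26 counts per library, at 1.11 ± 0.0870 CPM in Yes T348I and 1.64 ± 0.0857 CPM in Yes WT (SD, n = 3 each; log2 fold change -0.57, SE 0.26, edgeR adjusted p = 0.056), without overlap and not past the threshold. It passed with upper quartile scaling, at -0.61 (edgeR adjusted p = 0.040), with library size only, at -0.61 (edgeR adjusted p = 0.041), and with a mean of at least 1 CPM, at -0.58 (edgeR adjusted p = 0.048). Of 7 leukocyte markers, which are relevant because leukocytes express many interferon-stimulated genes, PTPRC had at most 5 counts and CD3E none. Their summed level was 0.987 to 1.74 CPM in Yes T348I and 2.63 to 3.36 CPM in Yes WT, of which CD14 averaged 0.721 CPM in Yes T348I and 2.43 CPM in Yes WT. Endothelial markers summed to 0.423 to 0.513 CPM in Yes T348I and 1.14 to 1.47 CPM in Yes WT, and fibroblast markers had at most 9 counts each. Only 1 of the 7 leukocyte markers was tested, and it was called lower in Yes T348I (log2 fold change -1.66). Likewise 1 of the 3 endothelial markers was tested and called lower (log2 fold change -2.00). Some library measures moved with the groups. Mitochondrial transcripts took 7.29% to 9.0% of counts in Yes T348I and 9.73% to 10.8% in Yes WT, and the nuclear RNAs MALAT1 and NEAT1 took 0.0858% to 0.0966% in Yes T348I and 0.174% to 0.203% in Yes WT. The part of these measures and of the marker genes in the results below was not tested.

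The core of the response element was present in promoters of genes on both sides of the comparison, and the stretches that hold it are shown for this reason. RefSeq promoters (GRCh38.p14, from 250 bases before to 50 bases after the transcript start) were matched by symbol for 42 of the 58 genes. The core was searched on both strands as GAAA, any 2 bases, and GAAA again. It was found in 25 of 42 genes (59.5%), and in 1195 of 27305 genes of the whole table (4.38%). Among genes higher in Yes T348I it was found in 8 of 9, among genes lower in Yes T348I in 11 of 22, and among tested genes with no call in 3 of 7. The core of the gamma-activated site, TTCNNNGAA, with N for any base and the same on both strands, was found in 11 of 42 genes and in 9.38% of the 27305 genes of the table. In 4 of the 58 promoters of these genes a match of one motif shared bases with a match of the other. A match is a description of the sequence and does not show binding. The 4 genes shown first were higher in Yes T348I, namely the GTPase gene GBP1, the mitochondrial effector gene IFI6, the RNA-activated synthetase gene OAS3 and the peptide transporter gene TAP1. Lines run 5′ to 3′ on the strand of the gene, capitals mark the matches, and up to 15 bases are given on each side.
GBP1: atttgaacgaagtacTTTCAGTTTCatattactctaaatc
IFI6: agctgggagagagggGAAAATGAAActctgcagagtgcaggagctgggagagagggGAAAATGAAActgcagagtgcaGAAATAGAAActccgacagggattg
OAS3: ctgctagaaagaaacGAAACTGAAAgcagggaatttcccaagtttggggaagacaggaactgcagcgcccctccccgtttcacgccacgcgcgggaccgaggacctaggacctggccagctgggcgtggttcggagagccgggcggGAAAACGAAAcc
TAP1: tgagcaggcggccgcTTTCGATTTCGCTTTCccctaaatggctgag

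The next 4 were lower in Yes T348I, namely the exonuclease gene ISG20, the RNA-binding effector genes IFIT1 and IFIT3, and PARP9, an ADP-ribosyltransferase gene that starts next to DTX3L in the opposite direction. The PARP9 window holds a core match that also lies in the promoter of DTX3L.
ISG20: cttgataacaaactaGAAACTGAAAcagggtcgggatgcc
IFIT1: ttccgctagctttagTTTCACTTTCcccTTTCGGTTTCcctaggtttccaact
IFIT3: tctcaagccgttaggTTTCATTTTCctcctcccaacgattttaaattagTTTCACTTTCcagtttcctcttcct
PARP9: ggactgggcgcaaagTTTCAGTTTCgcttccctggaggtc
In GRCh38 coordinates the windows are GBP1 at chr1:89065311-89065350 (- strand), IFI6 at chr1:27672261-27672363 (- strand), OAS3 at chr12:112938316-112938473 (+ strand), TAP1 at chr6:32853808-32853853 (- strand), ISG20 at chr15:88638932-88638971 (+ strand), IFIT1 at chr10:89392492-89392544 (+ strand), IFIT3 at chr10:89327826-89327899 (+ strand) and PARP9 at chr3:122564317-122564356 (- strand).

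More of these genes were lower than higher in Yes T348I. Of the 50 tested, 30 fell and 10 rose with an adjusted p under 0.05 in edgeR's quasi-likelihood test, and 10 did not pass. Over all 14723 genes tested, 55.3% were called, 27.3% lower and 28.0% higher, beside 60% and 20% of the 50 genes. The median log2 fold change was -0.25 over the 50 genes and -0.013 over all genes tested. Groups were fully apart, with no shared range, in 40 of the 50, against 59.5% of all genes tested. Changes of at least 1.5-fold were found for 8 genes that fell and 4 that rose, where 9.19% and 3.55% of all genes tested did so. The summed level of all 58 genes was 2449 to 2464 CPM in Yes T348I and 2781 to 2822 CPM in Yes WT.

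**Figure D1:**
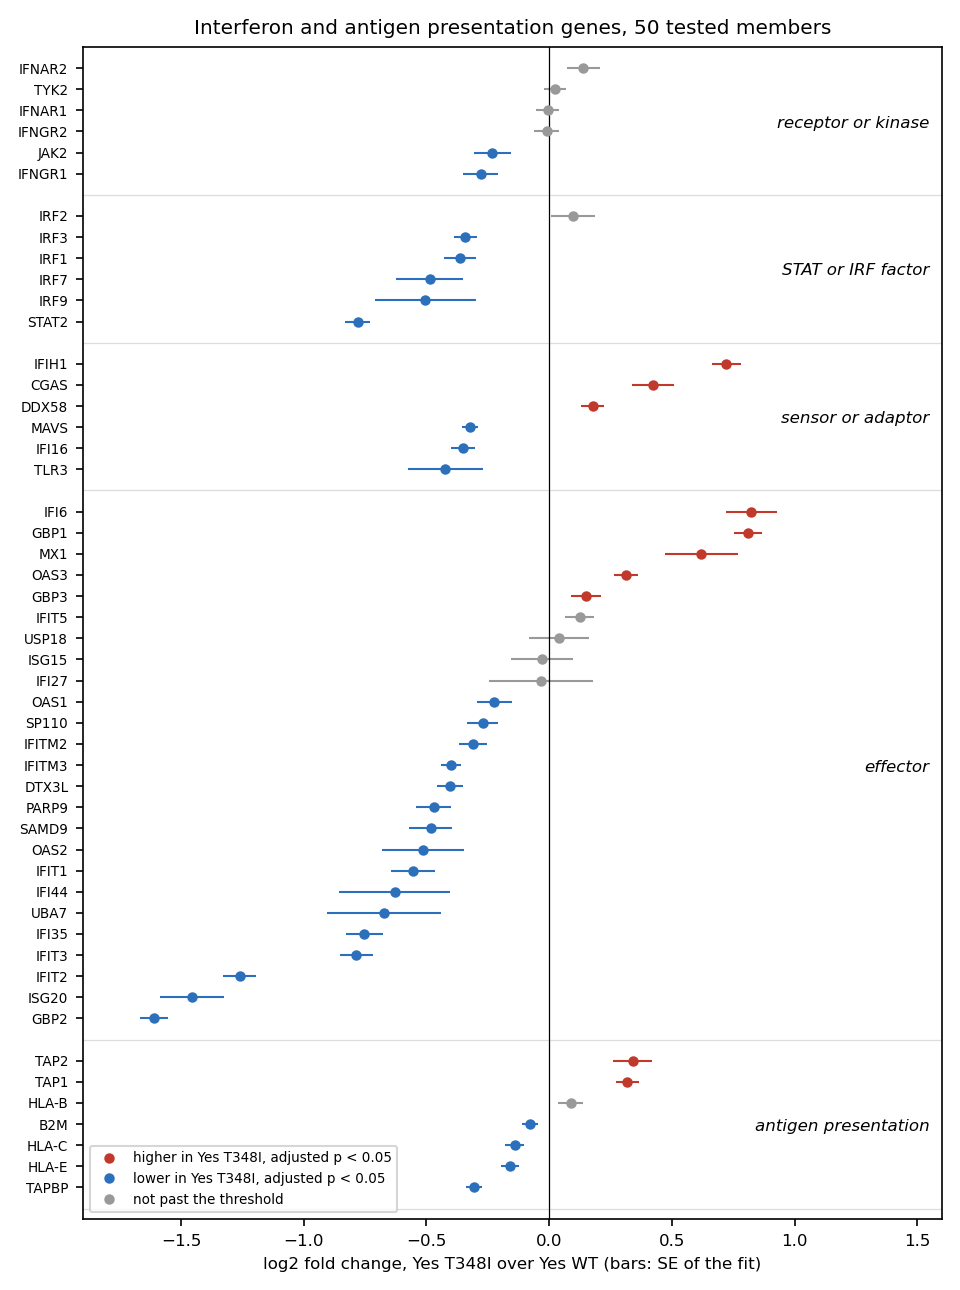
Log2 fold change of Yes T348I over Yes WT for the 50 tested genes, grouped by role, with bars for the SE of the fit. Of these, 30 lie to the left of 0 and 10 to the right of 0 with an adjusted p under 0.05. The sensor, effector and antigen presentation groups hold such genes on both sides.

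**Figure D2:**
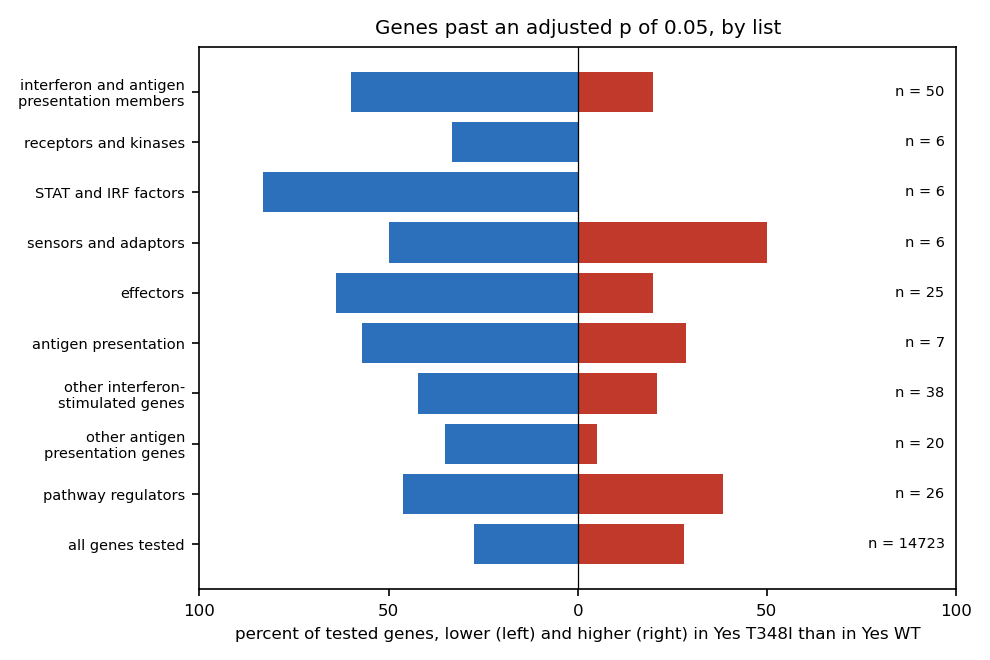
Share of the tested genes of each list that was lower (left bars) or higher (right bars) in Yes T348I than in Yes WT with an adjusted p under 0.05, in percent. The lower bar is longer than the higher one for the 50 genes together, while the bars for all 14723 genes tested are of similar length.

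The interferon receptors and their kinases were expressed and differed little. Of 6 genes, 2 fell (33.3%) and none rose, beside 27.3% and 28.0% of all genes tested. The type I receptor gene IFNAR1 was at 64.4, 69.8 and 69.0 CPM in Yes T348I, against 65.7, 67.1 and 70.8 CPM in Yes WT, with overlapping groups (log2 fold change -0.0066, SE 0.046, edgeR adjusted p = 0.91). Its partner IFNAR2, which shares exon bases with another gene of its strand in GENCODE 29, was at 31.6, 27.5 and 28.6 CPM in Yes T348I, against 28.4, 24.0 and 27.5 CPM in Yes WT, with overlapping groups (log2 fold change 0.14, SE 0.068, edgeR adjusted p = 0.080). It passed the threshold without Yes WT replicate 1 at a log2 fold change of 0.19 (edgeR adjusted p = 0.040), and without Yes T348I replicate 2 at 0.18 (edgeR adjusted p = 0.024). IFNGR1, which encodes the ligand-binding chain of the interferon gamma receptor, fell to 21.2, 21.9 and 23.7 CPM in Yes T348I, against 25.4, 25.3 and 30.2 CPM in Yes WT (log2 fold change -0.28, SE 0.072, edgeR adjusted p = 0.0010). All 3 Yes T348I values of IFNGR1 lay below the Yes WT values. The second chain, IFNGR2, was at 48.4, 51.0 and 49.7 CPM in Yes T348I, against 47.6, 52.0 and 50.5 CPM in Yes WT, with overlapping groups (log2 fold change -0.010, SE 0.050, edgeR adjusted p = 0.88). TYK2, the kinase gene linked to the type I receptor, was at 75.3, 70.2 and 70.1 CPM in Yes T348I, against 68.5, 72.7 and 71.8 CPM in Yes WT, again with overlapping groups (log2 fold change 0.023, SE 0.045, edgeR adjusted p = 0.69). JAK2, the kinase gene linked to the interferon gamma receptor, was at 17.8, 20.9 and 19.6 CPM in Yes T348I, against 24.9, 21.2 and 21.9 CPM in Yes WT (log2 fold change -0.23, SE 0.076, edgeR adjusted p = 0.0088). Its groups lay close together, and the difference did not pass without Yes WT replicate 1 at -0.15 (edgeR adjusted p = 0.13), without Yes T348I replicate 1 at -0.16 (edgeR adjusted p = 0.10), or in DESeq2 (log2 fold change -0.22, adjusted p = 0.058).

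None of the 11 interferon genes looked at was detected beyond single reads. Of these, 9, among them IFNB1, IFNG and the 3 IFNA genes looked at, had 0 counts in all 6 libraries. IFNL1 and IFNL2 had 1 count each in 1 Yes WT library. At these depths 3 counts correspond to 0.153 to 0.209 CPM of the unscaled library, which is the upper limit that a count of 0 allows, for counting error only. Reads that fit several genes or places were not counted, so this limit does not cover genes with close copies. Interferon proteins were not measured.

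STAT2 and 4 IRF genes were lower in Yes T348I. Of 6 genes in this group, 5 fell (83.3%) and none rose, beside 27.3% and 28.0% of all genes tested. STAT2 (chromosome 12, 56341597 to 56360155, GRCh38), which encodes the STAT protein specific to type I and type III interferon signalling, was at 38.7, 37.4 and 35.3 CPM in Yes T348I, against 63.2, 64.5 and 64.1 CPM in Yes WT. All 3 Yes T348I libraries lay well below all Yes WT libraries (log2 fold change -0.78, SE 0.050, edgeR adjusted p = 4.98e-17). IRF9, its DNA-binding partner, was expressed at only 1.74, 2.13 and 2.26 CPM in Yes T348I, against 3.54, 2.70 and 2.27 CPM in Yes WT. Those groups nearly touch (log2 fold change -0.51, SE 0.21, edgeR adjusted p = 0.035), and IRF9 shares exon bases with another gene of its strand in GENCODE 29. The IRF9 difference did not pass without Yes WT replicate 1, at a log2 fold change of -0.30 (edgeR adjusted p = 0.29), without Yes T348I replicate 1, at -0.38 (edgeR adjusted p = 0.17), or in DESeq2 (log2 fold change -0.49, adjusted p = 0.15). IRF3, the factor that turns on interferon genes after sensing, fell to 68.9, 63.7 and 60.5 CPM in Yes T348I, against 80.8, 85.7 and 79.5 CPM in Yes WT (log2 fold change -0.34, SE 0.047, edgeR adjusted p = 4.37e-08). IRF7, which amplifies type I interferon production and is itself interferon-induced, was at 3.95, 4.25 and 4.30 CPM in Yes T348I, against 5.50, 6.23 and 5.75 CPM in Yes WT (log2 fold change -0.49, SE 0.14, edgeR adjusted p = 0.0025). IRF1, an activator of antigen presentation genes, fell to 31.7, 25.6 and 27.1 CPM in Yes T348I, against 37.1, 36.3 and 36.2 CPM in Yes WT (log2 fold change -0.36, SE 0.064, edgeR adjusted p = 6.32e-06). The values of IRF1, IRF3 and IRF7 did not overlap between the groups. IRF2, which competes with IRF1 for its sites, was at 14.5 ± 0.904 CPM in Yes T348I and 13.6 ± 1.71 CPM in Yes WT (SD, n = 3 each; log2 fold change 0.10, SE 0.090, edgeR adjusted p = 0.37), with overlapping groups.

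The sensors and adaptors split, with IFIH1, DDX58 and CGAS higher and MAVS, IFI16 and TLR3 lower. Of 8 genes 6 were tested, and 3 rose and 3 fell. That is 50% each way, beside 28.0% higher and 27.3% lower of all genes tested. IFIH1 (chromosome 2, 162267079 to 162318703), which encodes the long double-stranded RNA sensor MDA5, was at 45.4, 50.4 and 51.3 CPM in Yes T348I, against 31.9, 27.3 and 29.4 CPM in Yes WT. Every Yes T348I library exceeded every Yes WT library (log2 fold change 0.72, SE 0.060, edgeR adjusted p = 1.37e-13). DDX58, now named RIGI and encoding the RNA sensor RIG-I, rose less, to 66.3, 72.2 and 69.2 CPM in Yes T348I, against 61.3, 61.0 and 61.0 CPM in Yes WT (log2 fold change 0.18, SE 0.046, edgeR adjusted p = 0.0011). CGAS, the cytosolic DNA sensor gene, was at 16.2, 17.4 and 15.9 CPM in Yes T348I, against 13.1, 12.7 and 11.1 CPM in Yes WT, again without overlap (log2 fold change 0.42, SE 0.086, edgeR adjusted p = 5.46e-05). MAVS, the mitochondrial adaptor through which RIG-I and MDA5 signal, fell to 259, 264 and 271 CPM in Yes T348I, against 337, 329 and 326 CPM in Yes WT (log2 fold change -0.32, SE 0.033, edgeR adjusted p = 2.50e-11). IFI16, a nuclear DNA sensor gene, fell to 55.0, 61.7 and 58.2 CPM in Yes T348I, against 73.4, 78.0 and 71.2 CPM in Yes WT (log2 fold change -0.35, SE 0.048, edgeR adjusted p = 4.21e-08). TLR3, the endosomal double-stranded RNA receptor gene, was at 3.90, 3.22 and 3.53 CPM in Yes T348I, against 5.38, 4.29 and 4.68 CPM in Yes WT, with a gap between the groups smaller than the range within Yes WT (log2 fold change -0.42, SE 0.15, edgeR adjusted p = 0.017). It did not pass without Yes WT replicate 1, at -0.33 (edgeR adjusted p = 0.12), without Yes T348I replicate 2, at -0.36 (edgeR adjusted p = 0.065), or in DESeq2 (log2 fold change -0.43, adjusted p = 0.088). STING1, the adaptor gene downstream of cGAS, had 2, 0 and 2 counts in Yes T348I, against 2, 2 and 2 in Yes WT, and was not tested. DHX58, which encodes the RIG-I-like regulator LGP2, had 7, 3 and 3 counts in Yes T348I, against 11, 10 and 6 in Yes WT, and was not tested either, though it could be fitted when some libraries were left out. Without Yes WT replicate 3 its log2 fold change was -1.31 (edgeR adjusted p = 0.031), and without Yes T348I replicate 1 it was -1.46 (edgeR adjusted p = 0.036).

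The effector genes held the largest changes in both directions. Of 31 genes 25 were tested, and 16 fell, 5 rose and 4 did not pass, with a median log2 fold change of -0.40. That is 64% lower and 20% higher, beside 27.3% and 28.0% of all genes tested. The 6 untested genes were MX2, RSAD2, XAF1, OASL, IFI44L and IFITM1, which had at most 14 counts in any library. The summed level of the 31 genes was 550.1 to 560.5 CPM in Yes T348I and 679.7 to 699 CPM in Yes WT, with no overlap.

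In the IFIT family, whose proteins bind foreign RNA and block its translation, 3 of 4 genes fell, beside 27.3% of all genes tested. The genes lie in 1 cluster on chromosome 10, from 89283694 to 89421001. IFIT2 was at 17.4, 15.9 and 15.7 CPM in Yes T348I, against 41.4, 38.5 and 38.2 CPM in Yes WT. All Yes T348I libraries were far below all Yes WT libraries (log2 fold change -1.26, SE 0.066, edgeR adjusted p = 6.83e-20), though in GENCODE 29 IFIT2 shares exon bases with another gene of its strand. IFIT3, which stabilises IFIT1, fell to 18.9, 21.2 and 17.8 CPM in Yes T348I, against 32.9, 33.5 and 33.4 CPM in Yes WT (log2 fold change -0.79, SE 0.067, edgeR adjusted p = 2.40e-13). IFIT1 fell to 10.9, 11.2 and 10.6 CPM in Yes T348I, against 14.7, 17.9 and 15.6 CPM in Yes WT (log2 fold change -0.55, SE 0.090, edgeR adjusted p = 1.23e-06). IFIT5 at the end of the cluster was at 33.8, 33.9 and 33.8 CPM in Yes T348I, against 31.5, 29.8 and 31.8 CPM in Yes WT, without overlap but not past the threshold (log2 fold change 0.12, SE 0.058, edgeR adjusted p = 0.068). With unstranded counts it passed, at 0.14 (edgeR adjusted p = 0.040). Within each library the ratio of IFIT2 to IFIT5 counts, which needs no scaling, averaged 0.482 ± 0.029 in Yes T348I and 1.27 ± 0.061 in Yes WT (SD, n = 3 each). The family members are similar in sequence, and reads shared between them were not counted.

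Guanylate-binding protein genes moved in opposite directions. These interferon gamma-induced GTPases attack membranes of intracellular microbes, and GBP3, GBP1 and GBP2 are neighbours on chromosome 1, from 89006666 to 89150456. GBP2 was at 21.2, 22.5 and 21.1 CPM in Yes T348I, against 65.1, 63.6 and 68.7 CPM in Yes WT, the largest fall among the 50 genes (log2 fold change -1.61, SE 0.056, edgeR adjusted p = 5.29e-26). GBP1 was at 47.8, 52.4 and 49.6 CPM in Yes T348I, against 28.5, 26.7 and 30.0 CPM in Yes WT, a rise with no overlap (log2 fold change 0.81, SE 0.057, edgeR adjusted p = 1.10e-15). The GBP2 to GBP1 count ratio within a library was 0.443, 0.429 and 0.425 in Yes T348I, against 2.28, 2.38 and 2.29 in Yes WT. GBP3 was at 28.4, 29.7 and 31.3 CPM in Yes T348I, against 26.0, 26.5 and 27.8 CPM in Yes WT, a small difference (log2 fold change 0.15, SE 0.063, edgeR adjusted p = 0.042). It did not pass without Yes WT replicate 1 (0.13, edgeR adjusted p = 0.15), Yes WT replicate 2 (0.14, edgeR adjusted p = 0.093), Yes T348I replicate 2 (0.15, edgeR adjusted p = 0.056) or Yes T348I replicate 3 (0.12, edgeR adjusted p = 0.16). With libraries scaled by upper quartile factors it stood at 0.11 (edgeR adjusted p = 0.14), with library size only at 0.11 (edgeR adjusted p = 0.13), and in DESeq2 at 0.15 (adjusted p = 0.13). GBP2 shares exon bases with GBP7 on its strand in GENCODE 29, and GBP1 and GBP3 are close copies, so their split is uncertain.

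The oligoadenylate synthetases, which make the messenger that activates RNase L, also split. OAS1, OAS3 and OAS2 follow each other on chromosome 12, from 112906777 to 113011723. OAS3 in the middle rose to 63.1, 60.8 and 64.5 CPM in Yes T348I, against 53.1, 48.5 and 49.7 CPM in Yes WT (log2 fold change 0.31, SE 0.049, edgeR adjusted p = 5.37e-07). OAS1 was at 20.6, 19.1 and 19.7 CPM in Yes T348I, against 22.0, 23.1 and 24.5 CPM in Yes WT, slightly lower without overlap (log2 fold change -0.22, SE 0.071, edgeR adjusted p = 0.0069), and did not pass without Yes WT replicate 3 (-0.18, edgeR adjusted p = 0.057). OAS2 was at 2.67, 3.02 and 4.23 CPM in Yes T348I, against 4.95, 4.01 and 4.88 CPM in Yes WT, where 1 Yes T348I library lay inside the Yes WT range (log2 fold change -0.51, SE 0.17, edgeR adjusted p = 0.0084). OAS2 did not pass without Yes T348I replicate 1, at -0.35 (edgeR adjusted p = 0.10), or in DESeq2 (log2 fold change -0.50, adjusted p = 0.059). The OAS1 to OAS3 count ratio was 0.326, 0.315 and 0.306 in Yes T348I, against 0.414, 0.476 and 0.494 in Yes WT. OASL, a synthetase-like gene without enzyme activity, had 2, 3 and 6 counts in Yes T348I, against 6, 0 and 5 in Yes WT.

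**Figure D3:**
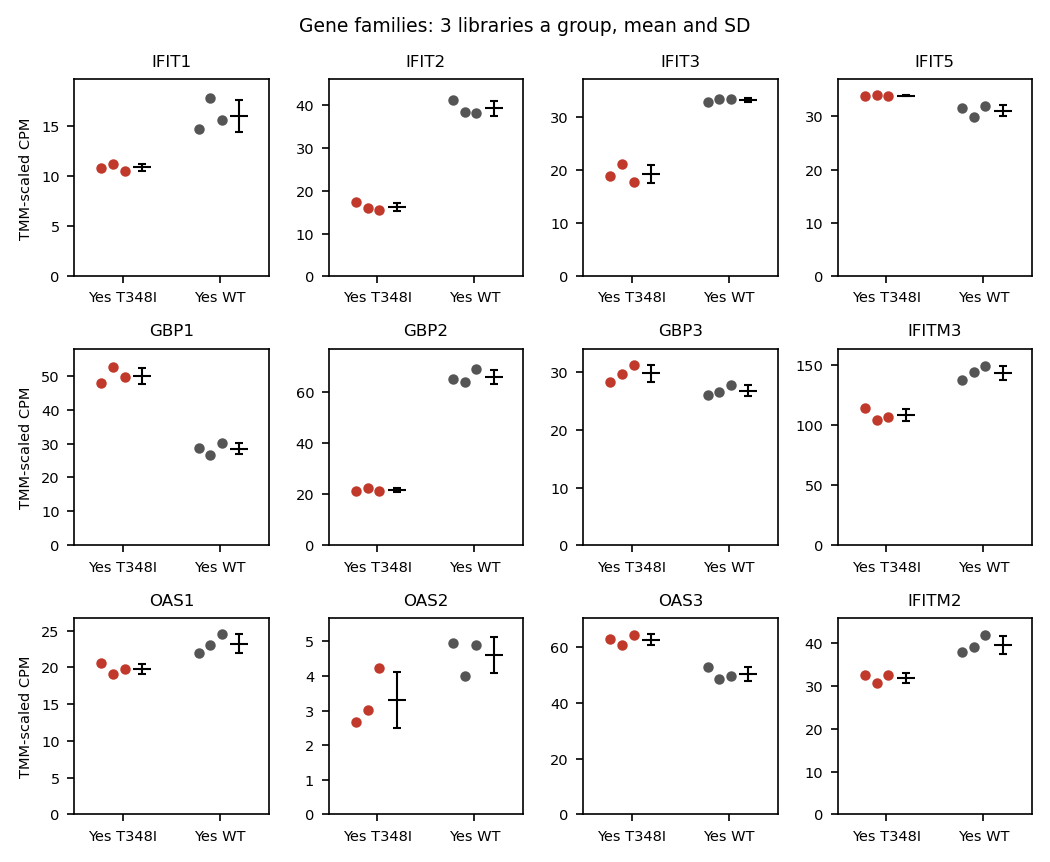
TMM-scaled CPM in each library for members of the IFIT, GBP, OAS and IFITM families, with Yes T348I left of Yes WT in each panel, points for libraries and bars for the mean and SD (n = 3). GBP1 and OAS3 lie higher in Yes T348I while their neighbours GBP2 and OAS1 lie lower, and IFIT5 differs little beside IFIT2 and IFIT3.

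ISG20 (chromosome 15, 88636153 to 88656483), an exonuclease of RNA, was at 3.33, 3.43 and 3.10 CPM in Yes T348I, against 9.17, 9.07 and 8.89 CPM in Yes WT. The libraries of each group lay close together and the groups far apart (log2 fold change -1.46, SE 0.13, edgeR adjusted p = 7.51e-13). IFI35, which pairs with NMI in cytokine regulation, fell to 18.3, 15.2 and 14.3 CPM in Yes T348I, against 26.5, 26.7 and 28.2 CPM in Yes WT (log2 fold change -0.75, SE 0.077, edgeR adjusted p = 3.38e-11). UBA7, which encodes the enzyme that activates ISG15 for conjugation, was lower at 1.38, 1.37 and 1.34 CPM in Yes T348I, against 2.44, 2.28 and 1.81 CPM in Yes WT (log2 fold change -0.67, SE 0.23, edgeR adjusted p = 0.013). With these few counts it did not pass without Yes WT replicate 1, at -0.58 (edgeR adjusted p = 0.072), or in DESeq2 (log2 fold change -0.67, adjusted p = 0.075). ISG15, the ubiquitin-like modifier itself, was at 7.69, 5.97 and 5.64 CPM in Yes T348I, against 6.66, 6.92 and 6.49 CPM in Yes WT with overlapping groups (log2 fold change -0.030, SE 0.13, edgeR adjusted p = 0.86). USP18, which removes ISG15 and dampens the type I receptor, was at 6.29 ± 0.330 CPM in Yes T348I and 6.15 ± 0.426 CPM in Yes WT (SD, n = 3 each; log2 fold change 0.040, SE 0.12, edgeR adjusted p = 0.80).

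IFI44, a cytoplasmic antiviral gene, was at 1.28, 1.51 and 1.62 CPM in Yes T348I, against 2.08, 2.63 and 2.07 CPM in Yes WT (log2 fold change -0.63, SE 0.23, edgeR adjusted p = 0.018). It did not pass without Yes WT replicate 2, at -0.51 (edgeR adjusted p = 0.095), without Yes T348I replicate 1, at -0.51 (edgeR adjusted p = 0.097), or in DESeq2 (log2 fold change -0.63, adjusted p = 0.092). Its neighbour IFI44L had at most 4 counts. PARP9 and DTX3L, whose products form an ADP-ribosylation and ubiquitin ligase complex, start next to each other in opposite directions and fell together. PARP9 was at 16.7, 18.0 and 16.0 CPM in Yes T348I, against 23.8, 23.5 and 22.8 CPM in Yes WT (log2 fold change -0.47, SE 0.072, edgeR adjusted p = 4.71e-07). DTX3L was at 34.9, 36.3 and 34.1 CPM in Yes T348I, against 47.2, 46.2 and 45.5 CPM in Yes WT (log2 fold change -0.40, SE 0.053, edgeR adjusted p = 2.07e-08). Neither pair of groups overlapped. SAMD9, an inhibitor of translation and of poxviruses, fell to 11.6, 13.1 and 11.7 CPM in Yes T348I, against 18.4, 16.1 and 16.1 CPM in Yes WT (log2 fold change -0.48, SE 0.086, edgeR adjusted p = 7.34e-06). SP110, a nuclear body gene, fell to 23.8, 26.4 and 25.7 CPM in Yes T348I, against 32.0, 28.9 and 30.2 CPM in Yes WT (log2 fold change -0.27, SE 0.064, edgeR adjusted p = 4.07e-04).

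IFITM proteins restrict virus entry at membranes. IFITM3 fell to 114, 105 and 107 CPM in Yes T348I, against 138, 144 and 149 CPM in Yes WT, with no overlap (log2 fold change -0.40, SE 0.040, edgeR adjusted p = 2.32e-11). IFITM2 fell to 32.6, 30.7 and 32.6 CPM in Yes T348I, against 38.0, 39.1 and 42.1 CPM in Yes WT (log2 fold change -0.31, SE 0.058, edgeR adjusted p = 1.31e-05), and IFITM1 had 4, 0 and 1 counts in Yes T348I, against 10, 14 and 2 in Yes WT. IFITM1 was not tested, but with no low-count filter it stood at -2.35 (edgeR adjusted p = 0.0010). The 3 genes are close copies, and IFITM1 and IFITM2 share exon bases in GENCODE 29, so their split is uncertain.

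Fewer effectors rose. Beside GBP1, GBP3 and OAS3, the effectors that rose were IFI6 and MX1. IFI6 (chromosome 1, 27666061 to 27672218), which encodes a mitochondrial protein that counters apoptosis and virus replication, was at 15.3, 12.1 and 12.5 CPM in Yes T348I, against 7.21, 7.61 and 8.02 CPM in Yes WT. All Yes T348I values lay above all Yes WT values (log2 fold change 0.82, SE 0.10, edgeR adjusted p = 8.10e-09). MX1 (chromosome 21, 41420304 to 41459214), the gene of a dynamin-like GTPase against influenza and other RNA viruses, was at 5.38, 5.07 and 6.91 CPM in Yes T348I, against 3.42, 4.01 and 3.81 CPM in Yes WT (log2 fold change 0.62, SE 0.15, edgeR adjusted p = 4.75e-04). Its relative MX2 had at most 1 count in any library. IFI27, often used as an interferon signature gene, was at 2.06 ± 0.243 CPM in Yes T348I and 2.10 ± 0.214 CPM in Yes WT (SD, n = 3 each; log2 fold change -0.032, SE 0.21, edgeR adjusted p = 0.91), with overlapping groups. RSAD2, which encodes the antiviral protein viperin, had at most 3 counts, and XAF1, a pro-apoptotic interferon-stimulated gene, at most 6.

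**Figure D4:**
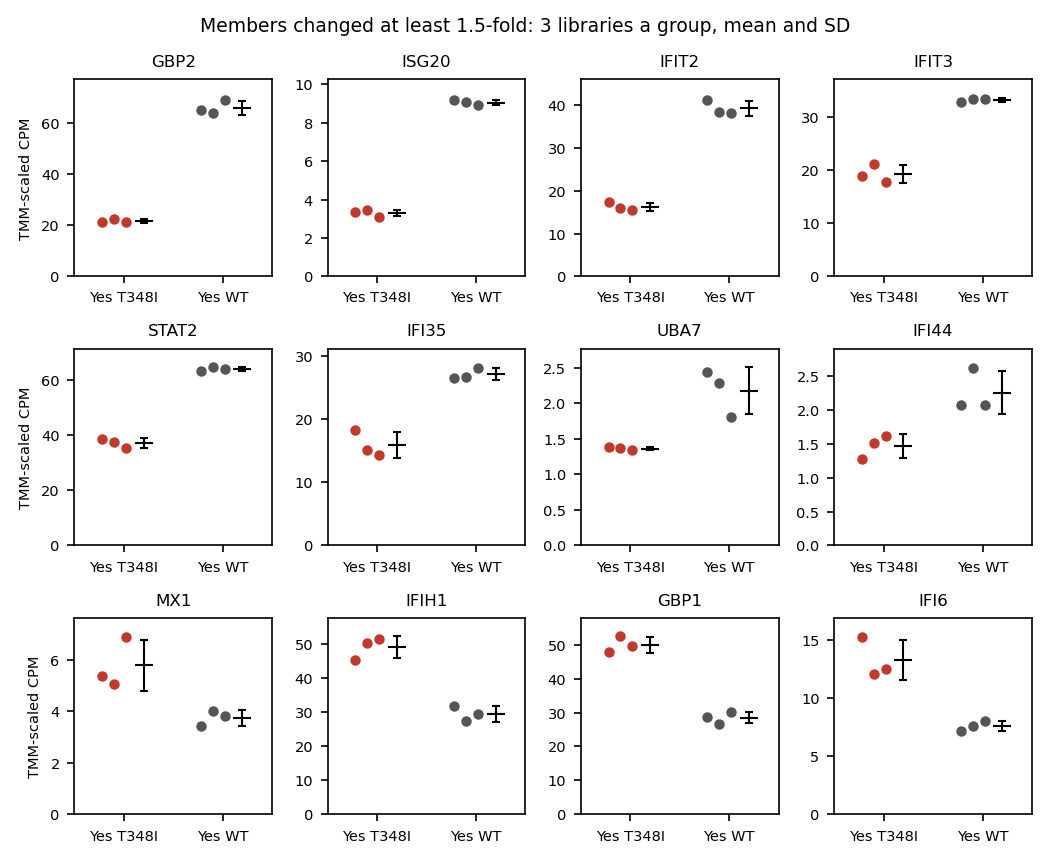
TMM-scaled CPM in each library for the 12 genes called with a change of at least 1.5-fold, with Yes T348I left of Yes WT in each panel, points for libraries and bars for the mean and SD (n = 3). GBP2, ISG20, IFIT2, IFIT3, STAT2, IFI35, UBA7 and IFI44 lie lower in Yes T348I, and MX1, IFIH1, GBP1 and IFI6 lie higher, with no overlap in any panel.

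Antigen presentation genes changed by less. Of 7 tested, 2 rose (28.6%) and 4 fell (57.1%), beside 28.0% and 27.3% of all genes tested. None changed by 1.5-fold. The peptide transporter genes were the ones that rose. TAP1 was at 64.8, 64.4 and 64.0 CPM in Yes T348I, against 50.5, 49.7 and 54.8 CPM in Yes WT (log2 fold change 0.32, SE 0.048, edgeR adjusted p = 3.15e-07), and TAP2 at 18.5, 18.9 and 19.2 CPM in Yes T348I, against 13.6, 16.1 and 15.2 CPM in Yes WT (log2 fold change 0.34, SE 0.079, edgeR adjusted p = 3.30e-04). In neither did the groups overlap, though TAP2 shares exon bases with another gene of its strand in GENCODE 29. TAPBP, which encodes tapasin, the bridge between transporter and class I molecule, fell to 270.4, 263 and 271 CPM in Yes T348I, against 329, 323 and 343 CPM in Yes WT (log2 fold change -0.31, SE 0.033, edgeR adjusted p = 1.29e-10). The TAPBP to TAP1 count ratio averaged 4.16 ± 0.072 in Yes T348I and 6.43 ± 0.15 in Yes WT (SD, n = 3 each).

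Class I genes were well expressed. HLA-E, whose product is read by natural killer cells, fell to 116, 117 and 112 CPM in Yes T348I, against 126, 131 and 128 CPM in Yes WT (log2 fold change -0.16, SE 0.038, edgeR adjusted p = 3.97e-04). HLA-C was at 214, 185 and 192 CPM in Yes T348I, against 218, 218 and 217 CPM in Yes WT (log2 fold change -0.14, SE 0.039, edgeR adjusted p = 0.0019), with 1 Yes T348I library close to the Yes WT values. HLA-B was at 48.3, 45.5 and 48.5 CPM in Yes T348I, against 44.9, 43.5 and 45.7 CPM in Yes WT, with overlapping groups (log2 fold change 0.087, SE 0.051, edgeR adjusted p = 0.15). HLA genes are close copies that vary between people, and HLA-B and HLA-C share exon bases in GENCODE 29, so their levels against the reference are uncertain. B2M, the light chain of all class I molecules, was at 307, 325 and 323 CPM in Yes T348I, against 328, 339 and 338 CPM in Yes WT (log2 fold change -0.077, SE 0.033, edgeR adjusted p = 0.045). This small difference did not pass without Yes WT replicate 2 (-0.068, edgeR adjusted p = 0.13) or 3 (-0.068, edgeR adjusted p = 0.16), or without Yes T348I replicate 1 (-0.041, edgeR adjusted p = 0.32) or 3 (-0.080, edgeR adjusted p = 0.095). It also did not pass with DESeq2 size factors (-0.075, edgeR adjusted p = 0.054), with no low-count filter (-0.051, edgeR adjusted p = 0.34), with unstranded counts (-0.070, edgeR adjusted p = 0.071), with the replicate number as a block (-0.076, edgeR adjusted p = 0.054) or in DESeq2 (log2 fold change -0.075, adjusted p = 0.090). Scaled by the length of merged GENCODE 29 exons (RPKM), the levels of IFITM3 (80.6 in Yes T348I and 107 in Yes WT), HLA-C (78.6 in Yes T348I and 86.9 in Yes WT), TAPBP (53.0 in Yes T348I and 65.6 in Yes WT) and B2M (52.3 in Yes T348I and 55.2 in Yes WT) were the highest of the 58. Their order depends on the merged length, which can exceed that of the transcripts made. It was 6079 bases for B2M and 1348 for IFITM3. In CPM, B2M averaged 318 in Yes T348I and 335 in Yes WT, above IFITM3 at 109 in Yes T348I and 144 in Yes WT.

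Other interferon-stimulated genes also lay lower more often than higher. Of 48 further such genes 38 were tested, and 16 fell and 8 rose. That is 42.1% lower and 21.1% higher, beside 27.3% and 28.0% of all genes tested. The median log2 fold change was -0.14. It was -0.086 without Yes WT replicate 1 and -0.18 without Yes WT replicate 3. Upper quartile scaling gave -0.18, library size only -0.17 and a mean of at least 1 CPM -0.18. The 4 falls with the lowest adjusted p were of SLFN5, TRANK1, TRIM38 and APOL2. The Schlafen family gene SLFN5 averaged 21.5 ± 2.47 CPM in Yes T348I and 45.7 ± 2.52 CPM in Yes WT (SD, n = 3 each; log2 fold change -1.07, SE 0.066, edgeR adjusted p = 1.32e-17). TRANK1 averaged 2.24 CPM in Yes T348I and 8.08 CPM in Yes WT (log2 fold change -1.83, SE 0.15). TRIM38, which restrains innate signalling, averaged 42.1 CPM in Yes T348I and 62.4 CPM in Yes WT (log2 fold change -0.57, SE 0.051), and the apolipoprotein gene APOL2 averaged 34.1 CPM in Yes T348I and 48.6 CPM in Yes WT (log2 fold change -0.51, SE 0.053). The 4 rises with the lowest adjusted p were of TRIM14, NT5C3A, PNPT1 and TRIM25. TRIM14, which supports signalling by MAVS, averaged 59.2 CPM in Yes T348I and 42.3 CPM in Yes WT (log2 fold change 0.49, SE 0.049). PNPT1, a mitochondrial RNA exonuclease gene, averaged 34.9 CPM in Yes T348I and 24.6 CPM in Yes WT (log2 fold change 0.51, SE 0.062), and the nucleotidase gene NT5C3A averaged 55.8 CPM in Yes T348I and 40.3 CPM in Yes WT (log2 fold change 0.47, SE 0.051). TRIM25, which encodes a ubiquitin ligase of RIG-I, averaged 203 CPM in Yes T348I and 172 CPM in Yes WT (log2 fold change 0.23, SE 0.034). The chemokine genes CXCL10 and CXCL11, classical products of interferon gamma signalling, had no more than 2 counts per library. The kinase gene EIF2AK2, which encodes the double-stranded RNA sensor PKR, averaged 129 ± 10.3 CPM in Yes T348I and 125 ± 4.74 CPM in Yes WT (SD, n = 3 each) and did not pass (edgeR adjusted p = 0.56). Without Yes T348I replicate 1 it passed, at a log2 fold change of 0.11 (edgeR adjusted p = 0.017).

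Of 29 further antigen presentation genes 20 were tested, and 7 fell and 1 rose. That is 35% lower and 5% higher, beside 27.3% and 28.0% of all genes tested. The number that fell was 12 with upper quartile or library size scaling and 4 in DESeq2. NLRC5, the transactivator of class I genes, was lower and averaged 4.58 ± 0.0770 CPM in Yes T348I and 8.07 ± 1.28 CPM in Yes WT (SD, n = 3 each; log2 fold change -0.81, SE 0.13, edgeR adjusted p = 1.33e-06). MR1, a class I-like gene that presents metabolites, fell to 14.3, 13.2 and 13.3 CPM in Yes T348I, against 22.2, 22.4 and 21.8 CPM in Yes WT (log2 fold change -0.70, SE 0.076, edgeR adjusted p = 2.03e-10). The peptidase gene ERAP2 averaged 62.6 CPM in Yes T348I and 71.5 CPM in Yes WT (log2 fold change -0.19, SE 0.046), and RFXANK, a subunit gene of the promoter complex of class I and class II genes, 17.5 CPM in Yes T348I and 20.6 CPM in Yes WT (log2 fold change -0.23, SE 0.076). RFXANK did not pass without Yes WT replicate 3, at -0.18 (edgeR adjusted p = 0.078), without Yes T348I replicate 3, at -0.19 (edgeR adjusted p = 0.064), with unstranded counts, at -0.17 (edgeR adjusted p = 0.079), or in DESeq2. PSME3, a nuclear proteasome activator gene, was the 1 that rose, to 260.2, 272 and 269 CPM in Yes T348I, against 182, 187 and 175 CPM in Yes WT (log2 fold change 0.55, SE 0.034, edgeR adjusted p = 1.42e-17). The immunoproteasome genes PSMB8 and PSMB9 did not pass, with log2 fold changes of -0.12 (SE 0.080) and 0.033 (SE 0.10).

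Regulators of the pathway were divided. Of 32 genes 26 were tested, and 12 fell and 10 rose, with a median log2 fold change of -0.052, or -0.13 without Yes WT replicate 1. In shares, 46.2% fell and 38.5% rose, beside 27.3% and 28.0% of all genes tested. The phosphatase gene PTPN11 had a log2 fold change of 0.38 (SE 0.032). PTPN1, whose phosphatase acts on JAK2 and TYK2, averaged 215 CPM in Yes T348I and 162 CPM in Yes WT (log2 fold change 0.41, SE 0.036), and the adaptor gene TRAF3 averaged 68.9 CPM in Yes T348I and 53.7 CPM in Yes WT (log2 fold change 0.36, SE 0.046). SOCS2, a suppressor of cytokine signalling, was higher and averaged 17.5 ± 1.04 CPM in Yes T348I and 10.9 ± 0.440 CPM in Yes WT (SD, n = 3 each; log2 fold change 0.68, SE 0.086, edgeR adjusted p = 5.68e-09). The corepressor gene IRF2BP2 averaged 175 CPM in Yes T348I and 271 CPM in Yes WT (log2 fold change -0.63, SE 0.037), and IRF2BPL, of the same family, averaged 42.8 CPM in Yes T348I and 66.3 CPM in Yes WT (log2 fold change -0.62, SE 0.055). PIAS3, which encodes a protein inhibitor of STAT proteins, averaged 60.9 CPM in Yes T348I and 93.1 CPM in Yes WT (log2 fold change -0.61, SE 0.043). TRIM56, a ubiquitin ligase gene of innate sensing, averaged 91.6 CPM in Yes T348I and 110.2 CPM in Yes WT (log2 fold change -0.27, SE 0.040). The kinase gene TBK1, which links the sensors to IRF3, averaged 48.4 ± 0.684 CPM in Yes T348I and 49.5 ± 2.95 CPM in Yes WT (SD, n = 3 each) and did not pass (edgeR adjusted p = 0.59).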

How the data were processed

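PolyA RNA of SNU-449 cells was sequenced with a strand-specific kit, per the labels. The authors deposited raw read counts per Ensembl gene, 1 file per library, in the layout that STAR writes. Tools and build in the submitters' processing notes are STAR 2.5.1b, Trimmomatic 0.35, CASAVA 1.8.2 and GRCh38, with no role or order. No annotation release is named there. Reverse-strand counts were taken, since the forward counts held only 6.13% to 6.59% of their total. Library sizes and tests left out the 4 summary lines. Reads on no counted gene made up 6.37% to 6.86% of uniquely mapped reads in Yes T348I and 7.40% to 7.87% in Yes WT. Reads that fit several genes or places are not in the counts, which lowers genes with close copies. Symbols came from a table of gene names, and positions, exon overlaps and merged exon lengths from GENCODE 29 (GRCh38). Of the 58 names, DDX58 was matched through GENCODE 29 (its present symbol is RIGI). All genes were fitted in R 4.3.3 with edgeR 4.0.16, with filterByExpr (minimum count 10), TMM scaling and a quasi-likelihood F-test without covariates. Benjamini-Hochberg adjustment ran over the 14723 genes tested, at a threshold of 0.05. SE is that of the log2 fold change, which is Yes T348I over Yes WT. It was derived as the size of that change divided by the square root of the F statistic. No set test was run. The fit was tested on simulated data, where it recovered 57.1% of genes changed 1.2-fold, 85.1% at 1.5-fold and 95.5% at 2-fold. Of the 161 calls there, 5 were false. Only 63 to 67 of 14520 genes were changed at each fold, so that setting differs from these data. DESeq2 1.42.0, other scalings and filters, unstranded counts, a replicate block and leaving out each library were alternatives. Every pair of libraries within a group differed by more than counting noise (chi-square per degree of freedom 1.48 to 5.19). The 58 genes, the other lists and the tests were chosen with earlier results of these data known. Any of the 58 may be named. Of the other lists, up to 4 genes in each direction with the lowest adjusted p are named. Markers, interferon genes and EIF2AK2, TBK1, PSMB8, PSMB9, CXCL10, CXCL11 and the class II genes are named outside this rule, after their values were seen.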

Additional observations from a re-analysis of the deposited data

How the results depend on the processing

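No tested gene of the 58 that was called changed sign under any alternative run. Of the 40 called, 39 stayed called with DESeq2 size factors, with upper quartile factors or with library size alone, 40 with a mean of at least 1 CPM, 38 with no low-count filter, 39 with unstranded counts and 32 in DESeq2's own test. The genes lost stand with their values in the report, apart from IRF9 with no low-count filter, at -0.48 (edgeR adjusted p = 0.052). Against a minimum change of 1.2-fold, 5 were higher and 13 lower, where 21.9% of all genes passed. Leaving out 1 library at a time left 9 to 10 higher and 26 to 29 lower. The median log2 fold change of all genes was -0.013, and -0.053 under upper quartile scaling, -0.050 under library size alone and -0.040 with no low-count filter. Of the other antigen presentation genes 7 were called lower, but 12 under either of these scalings and 4 in DESeq2. The cause was not tested. With the replicate number as a block, 10 of the 58 were higher and 29 lower. Over all genes the block gave 4054 higher and 3936 lower, against 4123 and 4024 without it. Same-numbered libraries did not deviate together (correlation across genes -0.0280 to 0.00137), and no library correlated best with its own number. Depth kept 8 of the 58 out of the test, each with at most 14 counts in any library.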

Other observations

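Class II antigen presentation genes were near the limit of detection. HLA-DRA, HLA-DPA1, HLA-DPB1, HLA-DQA1, CD74 and CIITA, the class II transactivator, stayed at or below 2 counts per library, and HLA-DRB1 reached 5. The peptide exchange genes were the ones with enough reads to be tested. HLA-DMA averaged 0.738 ± 0.109 CPM in Yes T348I and 1.39 ± 0.669 CPM in Yes WT (SD, n = 3 each; log2 fold change -0.92, SE 0.33, edgeR adjusted p = 0.016), and HLA-DMB averaged 2.82 ± 0.150 CPM in Yes T348I and 3.70 ± 0.624 CPM in Yes WT (SD, n = 3 each) and did not pass (edgeR adjusted p = 0.055). HLA-DMA did not pass without Yes WT replicate 2, at a log2 fold change of -0.49 (edgeR adjusted p = 0.28), without Yes T348I replicate 1, at -0.77 (edgeR adjusted p = 0.074), or in DESeq2. HLA-DMB passed without Yes WT replicate 2, at -0.51 (edgeR adjusted p = 0.018), and with upper quartile or library size scaling. The untested sensor regulator DHX58 had values that did not overlap between the groups, at 0.359, 0.206 and 0.212 CPM in Yes T348I, against 0.672, 0.692 and 0.401 CPM in Yes WT, each resting on few counts.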
